A study of Mus musculus with 12 samples.

Results

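The data here describe 10 genes that mark lipid-associated macrophages, Trem2, Gpnmb, Spp1, Cd9, Lpl, Fabp5, Fabp4, Cd36, Lgals3 and Plin2, in mouse liver. They were chosen by name, and all 10 were found among the 40840 genes of the expression tables. All 10 also lay above the lowest value of the tables in at least 3 of the 12 libraries, as did 19498 of the 40840 genes. The 12 libraries form 4 groups of 3: wild-type mice (WT, labelled C57BL/6) and caspase-11 knockout mice (Casp11-/-, labelled B6.129S4(D2)-Casp4tm1Yuan/J), each on a normal chow diet (NCD) or on a high-fat diet (HFD) that is also richer in cholesterol. The mice were males that entered the diets at 8 to 10 weeks of age and stayed on them for 12 weeks. The Casp4 allele of the knockout is in the germline and thus not limited to macrophages. The RNA came from the immune cell fraction that a Percoll gradient separated from digested, perfused liver and that the labels call hepatic macrophages, with no sort on a surface marker.

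Lipid-associated macrophages gather around steatotic hepatocytes and around dying, lipid-filled adipocytes. TREM2, a receptor for lipids and lipoproteins, signals through the adaptor encoded by Tyrobp, and this signal supports the uptake and breakdown of lipid in lysosomes. CD36 takes up fatty acids and oxidised lipoproteins, lipoprotein lipase releases fatty acids from triglyceride-rich particles, the fatty acid binding proteins FABP4 and FABP5 carry fatty acids in the cytosol, and perilipin 2 coats lipid droplets. Several of these genes are not particular to macrophages: Cd36 and Fabp4 are also made by endothelial cells, Lpl by muscle and adipocytes, and Gpnmb by pigment cells.

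Promoter sequences are shown for the uptake receptor Cd36, for the droplet coat Plin2 and for Trem2, because the first 2 genes are known targets of the lipid-sensing PPAR receptors whose levels came out differently below, and Trem2 is their best-known marker. The sequences run from 250 bases before to 50 after a RefSeq start site of each gene (GRCm38.p6, the mm10 build). Capitals mark a nuclear receptor half-site (AGGTCA on either strand, printed as TGACCT) in all 3 sequences. They also mark CACGTG in Plin2, and the PU.1 core (GAGGAA on either strand, printed as TTCCTC) and an AP-1 site (TGANTCA on either strand) in Trem2.
Cd36, chr5:17835847-17836146, minus strand: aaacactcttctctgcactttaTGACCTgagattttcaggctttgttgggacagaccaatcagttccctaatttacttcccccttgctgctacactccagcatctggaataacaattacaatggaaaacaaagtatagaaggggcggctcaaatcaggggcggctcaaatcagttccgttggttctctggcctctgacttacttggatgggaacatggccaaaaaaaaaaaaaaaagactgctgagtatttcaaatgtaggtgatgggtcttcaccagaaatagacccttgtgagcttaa
Plin2, chr4:86670010-86670309, minus strand: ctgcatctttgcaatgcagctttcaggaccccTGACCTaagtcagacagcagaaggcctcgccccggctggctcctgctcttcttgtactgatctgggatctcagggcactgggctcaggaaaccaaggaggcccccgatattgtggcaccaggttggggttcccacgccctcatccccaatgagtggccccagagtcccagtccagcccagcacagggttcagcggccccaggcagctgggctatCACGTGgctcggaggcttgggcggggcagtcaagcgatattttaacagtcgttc
Trem2, chr17:48346151-48346450, plus strand: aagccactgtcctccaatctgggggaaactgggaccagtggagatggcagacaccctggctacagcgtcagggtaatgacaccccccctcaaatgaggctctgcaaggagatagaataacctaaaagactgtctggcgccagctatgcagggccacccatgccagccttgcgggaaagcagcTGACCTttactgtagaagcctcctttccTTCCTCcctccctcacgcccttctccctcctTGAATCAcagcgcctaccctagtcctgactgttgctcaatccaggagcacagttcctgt

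The half-site begins 228 bases before the RefSeq start used for Cd36, 218 before that of Plin2 and 68 before that of Trem2. The start used for Cd36 lies inside the gene, which spans chr5:17781690-17888801 on the minus strand, and not at its outer end. In Plin2 the CACGTG begins 4 bases before the start, and in Trem2 the PU.1 core begins 40 and the AP-1 site 9 bases before it. Such matches are common: of 32851 RefSeq promoters of the same length, 16.3% hold AGGTCA, 7.15% CACGTG, 7.81% TGANTCA and 28.3% GAGGAA on either strand. They describe these windows and are no evidence of binding. Lpl, Fabp4 and Fabp5 are not printed.

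Levels are given in TPM, the share of transcripts scaled to a common total and divided by gene length so that genes can be compared, and a gene at the lowest value of a table, 1.01, is called at the floor. One library stood apart. In WT-NCD replicate 3 as many as 39677 genes exceeded the floor, where the other 11 libraries had 12940 to 18775, its correlation with the others over log values was -0.45 to -0.14 against 0.777 to 0.980 among the 11, and its Alb, the albumin gene of hepatocytes, was 6.46 TPM against at least 4445 TPM. Every comparison was therefore made with all 12 libraries and again with 11. Protein-coding genes also held only 15.7% to 42.4% of the TPM in the 11 libraries, so another fit rescaled them to a common total without that library. Their share was 22.3% to 42.4% in the NCD libraries of the 11 and 15.7% to 25.2% in the HFD libraries. Rescaling therefore mostly raises HFD values relative to NCD values. Casp4, the targeted gene, did not separate the genotypes: it ranged from 5.60 to 15.6 TPM in WT and from 2.56 to 15.2 TPM in Casp11-/- libraries, whose highest value was that of the library labelled Casp11-/- NCD replicate 3. A value per gene cannot separate deleted from remaining exons, so genotypes are used as labelled.

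Cd36 and Lpl were the members called higher on HFD over both genotypes once WT-NCD replicate 3 was left out. The namesake Trem2 was barely detected, and Lgals3, Spp1, Cd9 and Plin2 were not called higher on the deposited scale. The numbers of genes called (adjusted p under 0.05 in limma over all genes tested) frame this. With all 12 libraries and the diets compared over both genotypes, 108 of 19498 genes were called, only 8 of them higher on HFD (0.041% of the genes tested), and Lpl was 1 of these 8. With 11 libraries, 192 of 17950 genes were called higher (1.07%), among them Lpl and Cd36. After rescaling, 919 of 12368 were called higher (7.43%), among them 5 of the 10 members: Cd36, Lpl, Fabp4, Fabp5 and Cd9. The share of calls that were higher moved with the scaling, from 7.41% with 12 libraries and 5.84% with 11 to 54.3% after rescaling, and no member was called lower in any of these fits. The median log2 difference of the 10 members was 0.35, 0.23 and 0.82 in the 3 fits, against -0.61, -0.39 and -0.05 for all genes tested.

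**Figure D1:**
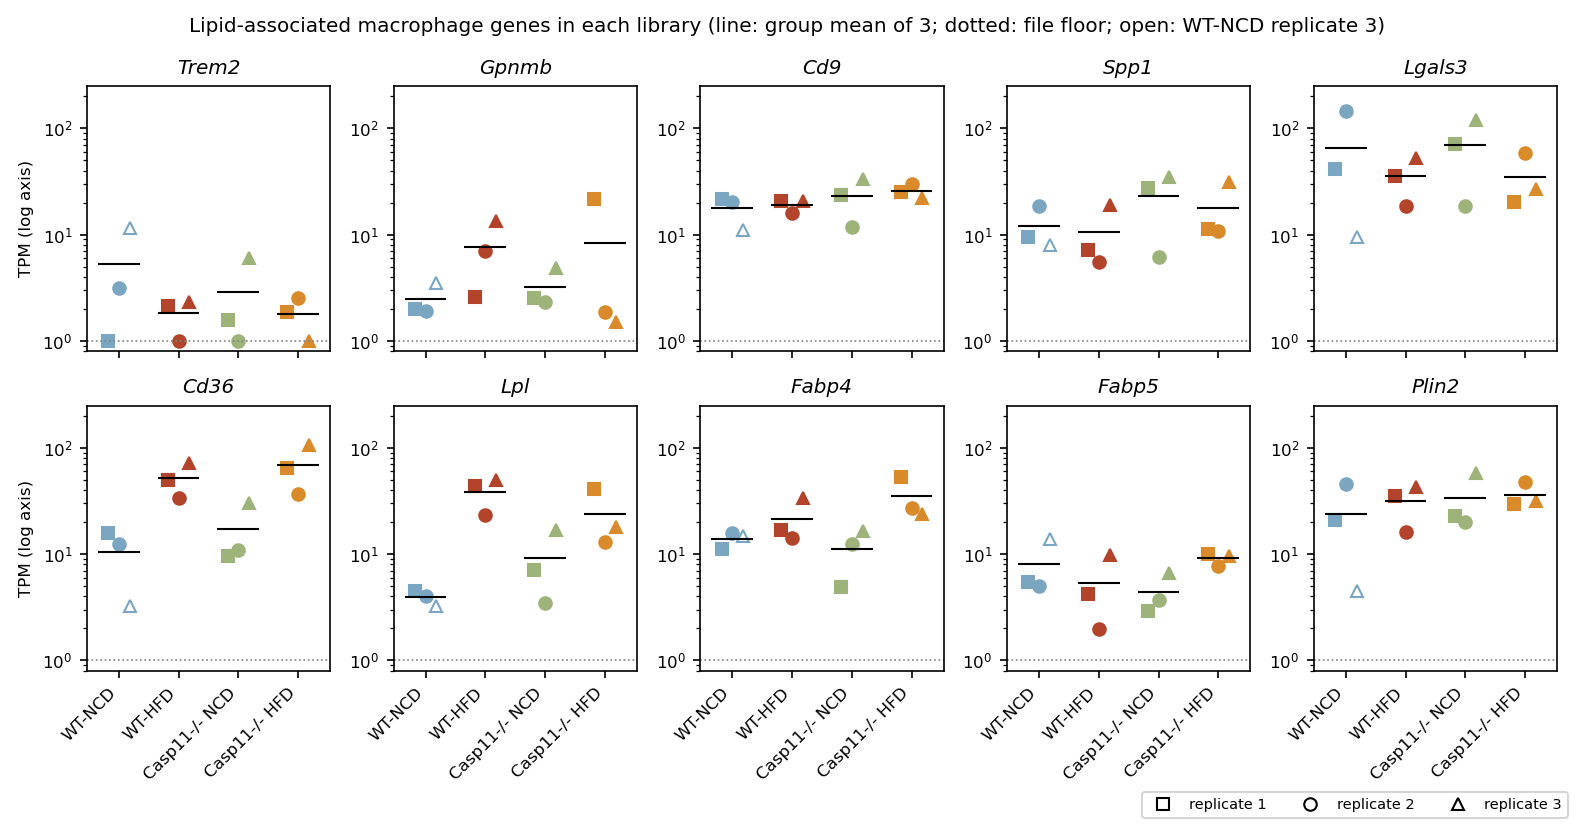
TPM (log axis) of each of the 10 genes in the 12 libraries, by group; symbols are replicates, horizontal lines group means of 3 libraries, the dotted line the floor and the open symbol WT-NCD replicate 3. All 6 HFD values of Cd36 lie above all 6 NCD values, and Trem2 is at most 3.18 TPM except in WT-NCD replicate 3 (11.6 TPM) and Casp11-/- NCD replicate 3 (6.00 TPM).

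Cd36 (chr5:17781690-17888801 in mm10), the fatty acid and oxidised lipoprotein receptor, was 15.7, 12.5 and 3.28 TPM in WT mice on NCD and 49.8, 33.8 and 72.2 TPM in those on HFD. In Casp11-/- it was 9.67, 11.01 and 30.6 TPM on NCD and 65.2, 36.7 and 106 TPM on HFD. Every HFD library was therefore above every NCD library, which held for 0.39% of the genes tested over the 6 HFD and 5 NCD libraries. The library closest to the other diet on the NCD side was that labelled Casp11-/- NCD replicate 3. The log2 difference over both genotypes was 2.19 ± 0.46 (SE) with 12 libraries, adjusted p = 0.078, and 1.88 ± 0.39 with 11, adjusted p = 0.00279. The effect in Casp11-/- mice (2.01 ± 0.51, adjusted p = 0.0533 with 11 libraries) and that in WT mice (1.76 ± 0.57, adjusted p = 0.14) differed by 0.26 ± 0.77, far inside its error.

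Lpl (chr8:68880491-68907448), the lipase that frees fatty acids from lipoproteins, had the largest diet difference among the 10 genes in WT mice. It was 4.47, 4.002 and 3.29 TPM in WT mice on NCD and 43.4, 23.5 and 49.3 TPM in those on HFD, with no overlap. The mean ± SD (n = 3) was 3.92 ± 0.59 TPM on NCD and 38.7 ± 13.5 TPM on HFD. The Casp11-/- libraries had 7.16, 3.47 and 16.9 TPM on NCD and 41.2, 12.99 and 17.9 TPM on HFD, so 1 HFD library lay below the highest NCD library. The WT difference was 2.96 ± 0.58 on the log2 scale with 12 libraries (adjusted p = 0.103) and 2.86 ± 0.60 with 11 (adjusted p = 0.00641). The Casp11-/- difference was 1.36 ± 0.54 with 11 libraries, adjusted p = 0.144. The genotypes were not shown to differ, since the interaction was -1.50 ± 0.80 with 11 libraries with an adjusted p of 1. Over both genotypes Lpl was 2.16 ± 0.41 higher with 12 libraries, adjusted p = 0.0498, a call that ended when any 1 of 10 of the 12 libraries was left out, and 2.11 ± 0.40 higher with 11, adjusted p = 0.0014.

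Fabp4 (chr3:10204088-10208576) and Fabp5 (chr3:10012548-10016607) are neighbouring paralogs that carry fatty acids in the cytosol. Fabp4 was 11.1, 15.8 and 14.9 TPM in WT mice on NCD and 16.9, 14.1 and 33.8 TPM in those on HFD, which overlapped. In Casp11-/- mice it was 4.90, 12.5 and 16.4 TPM on NCD and 53.6, 27.2 and 23.8 TPM on HFD, with no overlap. Its difference in Casp11-/- mice was 1.59 ± 0.51 as deposited (adjusted p = 0.111 with 11 libraries) and 2.13 ± 0.47 after rescaling (adjusted p = 0.0324). Fabp5 was 5.41, 5.04 and 14.0 TPM in WT mice on NCD and 4.26, 1.98 and 9.76 TPM in those on HFD. It was 2.90, 3.74 and 6.67 TPM in Casp11-/- NCD and 10.1, 7.69 and 9.52 TPM in Casp11-/- HFD, again without overlap in the knockout alone. Its difference there was 0.95 ± 0.50 with 11 libraries (adjusted p = 0.215) and 1.44 ± 0.36 after rescaling (adjusted p = 0.0475). Neither Fabp4 nor Fabp5 was called in the rescaled fit of Casp11-/- mice when Casp11-/- HFD replicate 1 was left out as well. That the diet effects of either gene differ between genotypes was not shown: the interactions with 11 libraries were 1.03 ± 0.76 for Fabp4 and 1.12 ± 0.76 for Fabp5, each with an adjusted p of 1.

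Counted within genotypes, Cd36 and Lpl were 2 of 10 members without overlap in WT, where 1.98% of 19498 genes had every HFD value above every NCD value. This WT count includes WT-NCD replicate 3, and the share without that library was not counted. Cd36, Fabp4 and Fabp5 were 3 of 10 in Casp11-/- mice, where 2.08% of genes did. By adjusted p, no member was called in WT with 12 libraries (0.0103% of genes were called higher), Lpl was called with 11 (0.134%), and Lpl and Cd36 after rescaling (0.509%). In Casp11-/- mice no member was called with 12 libraries (0% of genes) or with 11 (0.117%). In each of these fits 3 members had an unadjusted p under 0.05, as had 1653 of 19498 genes with 12 libraries and 4845 of 17950 with 11. Of these genes 222 and 492 were higher on HFD. After rescaling 4 members were called: Cd36, Lpl, Fabp4 and Fabp5 (2.68%). With Casp11-/- HFD replicate 1 left out of the rescaled fit as well, only Cd36 was called (0.585%).

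**Figure D2:**
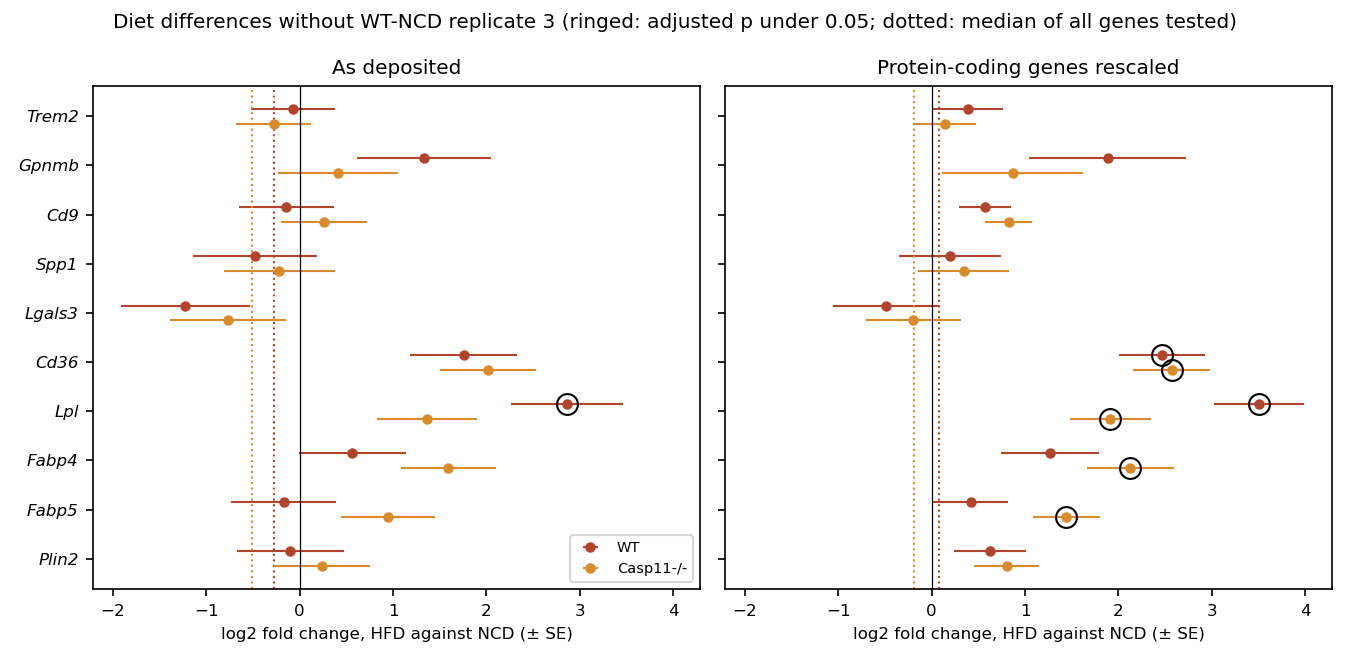
Log2 difference of HFD against NCD (± SE) of each gene in WT and Casp11-/- mice without WT-NCD replicate 3, as deposited (left) and with protein-coding genes rescaled (right); rings mark adjusted p under 0.05 and dotted lines the median of all genes tested. As deposited only Lpl in WT is ringed, while after rescaling Cd36 and Lpl are ringed in both genotypes and Fabp4 and Fabp5 in Casp11-/- mice.

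Trem2, the surface receptor for which these macrophages are best known, was the lowest of the 10 genes, with a median of 1.89 TPM over the 11 libraries. It was 1.01, 3.18 and 11.6 TPM in WT mice on NCD and 2.13, 1.01 and 2.33 TPM in those on HFD. Its values in Casp11-/- mice were 1.59, 1.01 and 6.00 TPM on NCD and 1.89, 2.51 and 1.01 TPM on HFD. The highest value was that of WT-NCD replicate 3, and 4 of the other 11 libraries were at the floor. No HFD library exceeded 2.51 TPM, and the differences of -0.07 ± 0.45 in WT and -0.28 ± 0.40 in Casp11-/- mice (11 libraries) were within their errors. At this level a change was not detectable. With the defining receptor at most 6.00 TPM in the 11 libraries and at the floor in 4, the genes are described by name and the libraries are not said to hold lipid-associated macrophages. By contrast Tyrobp, the gene of the adaptor that TREM2 shares with other receptors, was 106 to 709 TPM in the same 11 libraries.

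Gpnmb, a glycoprotein of lysosomes and of melanosomes, was 2.001, 1.92 and 3.48 TPM in WT mice on NCD and 2.59, 7.06 and 13.3 TPM in those on HFD. The knockout had 2.55, 2.34 and 4.85 TPM on NCD and 21.5, 1.87 and 1.51 TPM on HFD. A single library, Casp11-/- HFD replicate 1, thus held the highest value of all 12 in a group whose other 2 libraries were the lowest. The diet difference in Casp11-/- mice was 0.41 ± 0.64 with 11 libraries and -0.61 ± 0.55 when that library was left out as well (adjusted p = 0.508), while in WT it was 1.33 ± 0.72 (adjusted p = 0.364).

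The genes whose levels followed Gpnmb most closely over the 11 libraries were Cfd, an adipocyte-derived protease (Pearson r = 0.975), Tyrp1, an enzyme of melanin synthesis (r = 0.974), and Myh6, the alpha heavy chain of cardiac myosin (r = 0.965). A list of 4 pigment cell genes (Tyrp1, Dct, Pmel and Mlana) and one of 6 heart muscle genes (Myh6, Tnnt2, Actc1, Mb, Myl2 and Tnni3), both drawn up after these values were seen, were likewise highest in Casp11-/- HFD replicate 1. The heart muscle sum was 340 TPM in Casp11-/- HFD replicate 1, 57.4 to 89.2 TPM in WT-HFD and 17.8 to 54.0 TPM in the 7 other libraries of the 11. The pigment cell sum was 90.1 TPM in that 1 library and 5.45 to 26.4 TPM in the 10 others. The ratio of the pigment to the heart sum nevertheless stayed between 0.240 and 0.349 in all 11 libraries. Fabp3, the heart paralog of the fatty acid binding proteins, was 62.2 TPM in the same library against 2.18 to 11.5 TPM. The part of such transcripts in the Gpnmb level, and in those of Lpl, Cd36 and Fabp4, which heart muscle or fat tissue also express, was not tested. Without both WT-NCD replicate 3 and Casp11-/- HFD replicate 1, Cd36 was still 1.87 ± 0.42 higher on HFD over both genotypes (adjusted p = 0.0077) and Lpl 1.88 ± 0.42 (adjusted p = 0.00704), while the difference of Fabp4 was 0.90 ± 0.41 (adjusted p = 0.137).

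**Figure D3:**
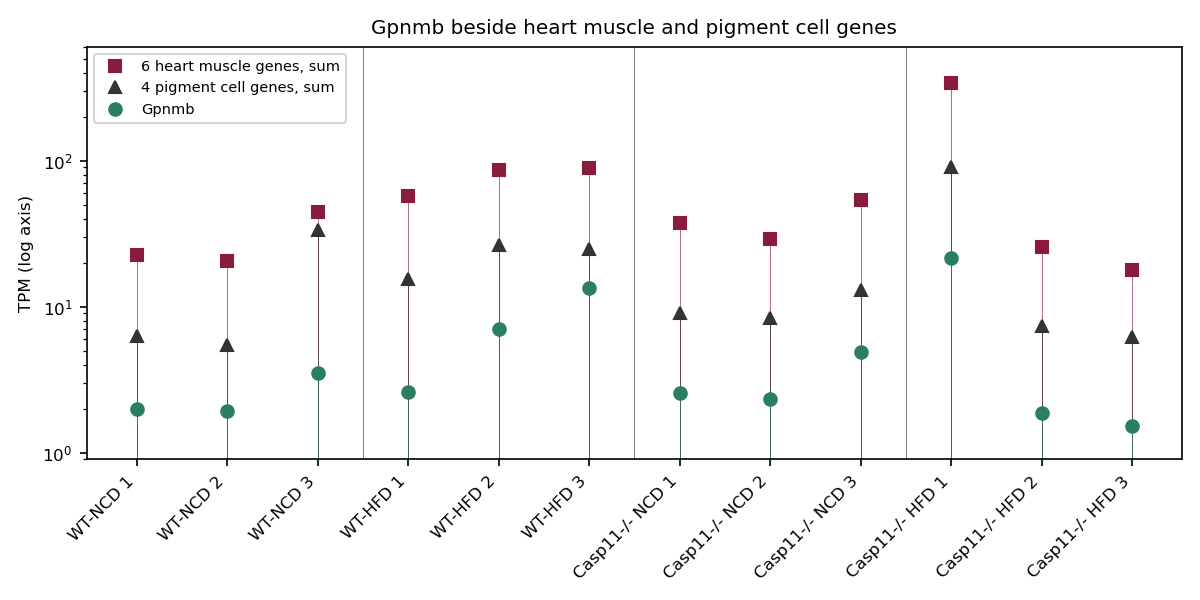
TPM (log axis) of Gpnmb and summed TPM of 6 heart muscle and 4 pigment cell genes in each of the 12 libraries. All 3 quantities are highest in Casp11-/- HFD replicate 1, and the distance between the heart and pigment points is nearly the same in every library but WT-NCD replicate 3.

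Cd9 encodes a tetraspanin of the cell surface. On NCD it was 21.5, 20.4 and 11.1 TPM in WT and 23.4, 11.7 and 33.7 TPM in Casp11-/- mice, and on HFD it was 20.5, 16.1 and 20.5 TPM in WT and 25.2, 29.8 and 22.2 TPM in Casp11-/- mice. The diets overlapped in both genotypes, and the diet difference over both genotypes was 0.06 ± 0.34 with 11 libraries (adjusted p = 0.89). After rescaling it was 0.70 ± 0.19 (adjusted p = 0.0302), so the call on Cd9 rests on the scale. With Casp11-/- HFD replicate 1 left out of the rescaled fit as well, Cd9 and Fabp5 were no longer called over both genotypes. Cd36, Lpl and Fabp4 still were. On the rescaled values Cd36, Lpl, Fabp4 and Cd9 were the 4 members with every HFD library above each of the 5 NCD libraries, as were 3.88% of the genes tested.

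Spp1 and Lgals3 encode the secreted proteins osteopontin and galectin-3. Spp1 was on NCD 9.48, 18.4 and 8.03 TPM in WT and 27.7, 6.14 and 35.1 TPM in Casp11-/- mice, and on HFD 7.15, 5.56 and 18.9 TPM in WT and 11.3, 10.9 and 31.4 TPM in Casp11-/- mice. The 4 groups overlapped, and the diet difference over both genotypes was -0.35 ± 0.45 with 11 libraries. Lgals3 was 41.5, 145 and 9.46 TPM in WT mice on NCD and 35.2, 18.7 and 52.7 TPM in those on HFD. The Casp11-/- values were 71.8, 18.4 and 121 TPM on NCD and 20.3, 58.0 and 26.8 TPM on HFD. The 3 highest values were thus from NCD libraries, but the diets overlapped, and the difference over both genotypes was -0.99 ± 0.46 with 11 libraries (adjusted p = 0.121). When each library was instead scaled to the geometric mean of 4 pan-macrophage genes (Csf1r, Adgre1, Fcgr1 and Mertk), the log2 difference of Lgals3 was -1.75 ± 0.42 with 11 libraries (adjusted p = 0.000837) and that of Spp1 -1.06 ± 0.40 (adjusted p = 0.0215). Of these reference genes, Fcgr1 was at the floor in Casp11-/- NCD replicate 2 and Mertk just above it in Casp11-/- NCD replicate 1. The median of all genes was -0.99 on the macrophage scale and 60.7% of genes were called lower, so lower calls there were common. Cd36 (1.14 ± 0.41, adjusted p = 0.0171) and Lpl (1.41 ± 0.39, adjusted p = 0.00279) were called higher, as were 0.217% of genes. After rescaling of protein-coding genes Spp1 had the other sign (0.27 ± 0.37, adjusted p = 0.628), so its direction rests on the scale.

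Plin2, the gene of the droplet coat protein, was on NCD 21.0, 46.0 and 4.54 TPM in WT and 22.6, 20.1 and 57.4 TPM in Casp11-/- mice, and on HFD 34.9, 16.1 and 43.2 TPM in WT and 29.4, 47.7 and 31.3 TPM in Casp11-/- mice. The diets overlapped in both genotypes, and the difference over both was 0.07 ± 0.38 with 11 libraries (adjusted p = 0.885). After rescaling it was 0.71 ± 0.26 (adjusted p = 0.0803), with 5 of the 6 HFD libraries above all 5 NCD libraries. Over the 11 libraries the rescaled levels of Plin2 and Cd36 had r = 0.679. Within a library the ratio of Lpl to Plin2 was 0.0871 to 0.316 in the 5 NCD libraries and 0.272 to 1.46 in the 6 HFD libraries. The ratio of Cd36 to Lgals3 did not overlap between the diets, at 0.0861 to 0.597 on NCD and 0.633 to 3.95 on HFD. Cd36 alone did not overlap either, and how often other pairs of genes do so was not counted.

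The make-up of the set differed between the diets. Lgals3 was the most abundant of the 10 genes in 4 of the 5 NCD libraries and Plin2 in the fifth, whereas Cd36 was the most abundant in 5 of the 6 HFD libraries and Lgals3 in Casp11-/- HFD replicate 2. Lgals3 made up 53.3% of the summed TPM of the 10 genes in WT-NCD replicate 2, and Cd36 39.0% in Casp11-/- HFD replicate 3. The sum itself was 90.5 to 328 TPM on NCD and 138 to 316 TPM on HFD. As a share of the protein-coding TPM it was 0.0385% to 0.0762% in the 5 NCD libraries and 0.0863% to 0.143% in the 6 HFD libraries. The protein-coding TPM was itself mostly lower on HFD, and how often other sets of genes separate was not counted. Of the members only Cd36, Lpl, Fabp4 and Cd9 separated singly on the rescaled values, as did 3.88% of genes, so the set did not rise as a whole.

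**Figure D4:**
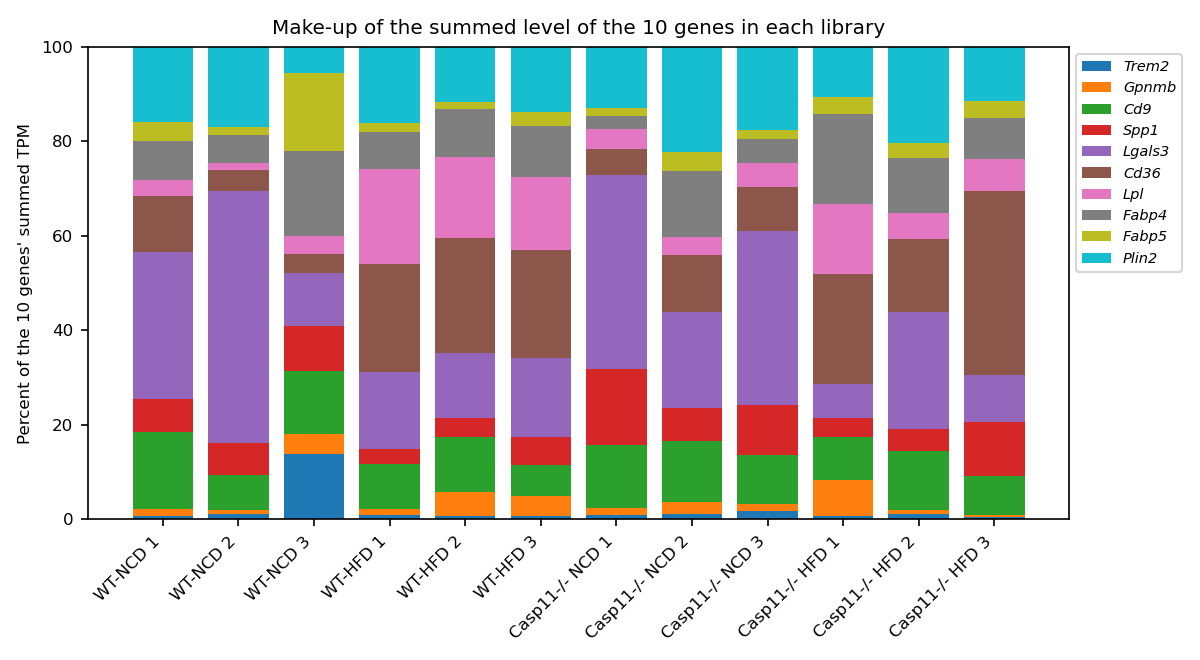
Share of each of the 10 genes in their summed TPM (percent) in each of the 12 libraries. Lgals3 takes the widest band in most NCD libraries and Cd36 in most HFD libraries, while Trem2 is a thin band everywhere except in WT-NCD replicate 3.

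No member was called between the genotypes on either diet. With 12 libraries 0% of genes were called on NCD, on HFD or in the interaction of diet and genotype, and with 11 libraries 0.0557%, 0% and 0.00557%, in each case without a member. In the fit with 12 libraries 293, 30 and 154 genes had an unadjusted p under 0.05 in these 3 comparisons, none of them a member. On HFD the log2 differences of Casp11-/- against WT ran from -0.76 for Lpl (SE 0.58) to 0.86 for Fabp5 (SE 0.55) with 12 libraries. Lpl was 43.4, 23.5 and 49.3 TPM in WT-HFD against 41.2, 12.99 and 17.9 TPM in Casp11-/- HFD, which overlapped. Fabp5 overlapped as well, at 1.98 to 9.76 TPM in WT-HFD and 7.69 to 10.1 TPM in Casp11-/- HFD. Cd9 was the 1 member whose Casp11-/- HFD values all lay above its WT-HFD values, as did 0.836% of the genes tested, with a difference of 0.41 ± 0.44 (adjusted p = 1). With 3 libraries a group these errors leave room for differences of the size seen.

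The genes that work with the members gave no common direction. In the fit with 11 libraries 17.3% of all genes were called lower on HFD over both genotypes, and after rescaling 6.26%, which the counts of lower calls are to be read against. Of 6 genes of TREM2 signalling and its ligands, 3 were called lower and none higher over both genotypes with 11 libraries: Plcg2 (phospholipase C gamma 2, -1.85, adjusted p = 0.0103), Syk (the kinase downstream of the adaptor, -1.69, adjusted p = 0.0148) and Inpp5d (the phosphatase SHIP1, -1.46, adjusted p = 0.0242). After rescaling Plcg2 (-1.21) and Syk (-1.04) were called lower. Of 19 tested among 20 other genes known from these macrophages, Capg (-1.72, adjusted p = 0.00742) and Anxa2 (-1.52, adjusted p = 0.02), both of the actin and membrane cortex, were called lower and none higher, a smaller share than that of all genes. After rescaling 6 of the 19 were called higher, against 7.43% of all genes: the proteases Ctsb (0.99), Ctsd (0.69), Ctsl (1.05) and Lgmn (1.23), the lipase Lipa (1.26) and Mmp12 (0.97), while Capg was called lower (-1.09). Rescaling moves the floor as well, and by more in the HFD libraries: Mmp12 was at the floor in all 5 NCD libraries and in 2 of the 6 HFD libraries, as 42 of the 919 genes called higher were in all 5 NCD libraries, so its value is not read as a change. The median of the list was -0.20 with 11 libraries and 0.46 after rescaling.

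Among the paralogs, 4 of 7 other fatty acid binding proteins were tested and 1 was called higher with 11 libraries. This was Fabp7, with a log2 difference of 2.09 (adjusted p = 0.000922), which was at most 3.57 TPM in the 5 NCD libraries and 6.46 to 24.5 TPM in the 6 HFD libraries. None of 3 perilipin paralogs tested was called, and the floor held Plin1, the adipocyte paralog, in 10 of the 11 libraries. Of 7 partners of lipoprotein lipase, Gpihbp1, the endothelial protein that binds the lipase in capillaries, was called higher (1.39, adjusted p = 0.0494). Of 10 genes of droplet and triglyceride turnover none was called with 11 libraries (median -0.35; Dgat1, an enzyme of triglyceride synthesis, -0.64), while after rescaling Mgll (1.31) was called higher. Cidec was at the floor in all 5 NCD and 3 of the 6 HFD libraries, and its call after rescaling is not read as a change. Of 7 regulators, the transcription factor genes Tfeb (-1.51, adjusted p = 0.0177) and Cebpb (-1.54, adjusted p = 0.0396) were called lower. After rescaling Nr1h3, the gene of the liver X receptor alpha (1.09), was called higher and Tfeb lower (-0.94). Mitf was called higher as well (0.72), with 3 of the 5 NCD libraries at the floor. Pparg was not called and did not exceed 6.81 TPM in the 11 libraries.

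The members moved beside markers of several cell types, and in bulk RNA fewer cells of a type cannot be told apart from less RNA per cell. All 8 Kupffer cell markers were called higher on HFD with 11 libraries, led by Cd5l (3.69), Vsig4 (3.25) and Clec4f (2.93). Their summed level was 27.0 to 56.7 TPM in the 5 NCD libraries and 185 to 588 TPM in the HFD libraries. Of 7 sinusoidal endothelial markers 5 were called higher, among them Cdh5 (1.30), Clec4g (1.39) and Lyve1 (1.59), with sums of 113 to 495 TPM on NCD and 271 to 1328 TPM on HFD. Of 7 monocyte markers 1, S100a4 (-1.27), was called lower, a share near the 17.3% of all genes, with sums of 164 to 1379 TPM on NCD and 140 to 562 TPM on HFD. Of the pan-macrophage genes Mertk (1.58) was called higher and Csf1r was not (0.10). All 6 B cell markers and all 7 T and NK cell markers were called lower, with medians of -2.26 and -1.38. Among the other lists, no neutrophil marker of 8 was called (S100a8, -0.56), though their sum was 4390 TPM in Casp11-/- HFD replicate 2 against at most 986 TPM in the other libraries of the 11. No hepatocyte marker of 8 (Alb, -0.02) and neither of 2 tested adipocyte markers was called. Ccr7 of 7 dendritic cell markers (-2.03), Reln of 6 tested stellate cell markers (-0.98) and Epcam of 4 tested cholangiocyte markers (-1.43) were called lower, 1 gene in each list, and Ppbp of 5 tested platelet markers (1.28) higher. These calls are on the deposited scale. On the rescaled values Zbtb46 and Clec9a (dendritic), Lrat and Dcn (stellate), Adgre1 (pan-macrophage) and Pf4 and Gp9 (platelet) were called higher. Lrat and Gp9 were each at the floor in 2 of the 5 NCD libraries. Lower calls of these lists on the rescaled values are not given here, and no common direction is read for them. Krt19, a cholangiocyte keratin, was called lower on HFD in Casp11-/- mice (-3.40, adjusted p = 0.0243). No list had a marker at the floor in all 11 libraries except Pdgfrb of stellate cells and Lep and Retn of adipocytes, apart from 3 of the paralogs, Fabp6, Fabp9 and Fabp12.

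The genes most alike in pattern differed from member to member. Cd36 was followed most closely over the 11 libraries by Cav2 (r = 0.991), a caveolin, Bmpr2 (r = 0.988), a receptor of bone morphogenetic proteins, and Ctnnd1 (r = 0.985), a catenin of cell junctions. Lgals3 was followed by Tgfbi (r = 0.953), an extracellular matrix protein, Lilra6 (r = 0.947), a leukocyte receptor, and G6pdx (r = 0.943), the first enzyme of the pentose phosphate pathway. Lpl was followed by Mosmo (r = 0.981), Ifi27 (r = 0.974) and Lipa (r = 0.970), the lysosomal acid lipase.

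For the other members r was lower. The first companion was Serpinh1, a collagen chaperone, for Fabp4 (r = 0.947), Col4a2, a chain of basement membrane collagen, for Fabp5 (r = 0.927), Ifi207 for Plin2 (r = 0.914), Osbpl11 for Spp1 (r = 0.898) and Gnaq, a G protein subunit, for Cd9 (r = 0.881). These are the closest of 7537 genes and share the libraries and their composition, so they are given without a test. Among the members themselves Cd36 and Lpl had r = 0.893 and Fabp4 and Fabp5 r = 0.879, while Lgals3 had a negative r with Cd36 (-0.33), Lpl (-0.25) and Gpnmb (-0.30).

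Ratios to the marker lists were taken within each library. The ratio of Cd36 to the geometric mean of the sinusoidal endothelial markers overlapped between diets, with medians of 0.345 in the 5 NCD libraries and 0.685 in the 6 HFD libraries. That of Fabp4 to the same markers had medians of 0.372 and 0.346. The ratio of Lpl to the Kupffer cell markers had medians of 1.51 and 1.30, and that of Lgals3 to the monocyte markers 1.72 and 1.73. The ratio of Lpl to the endothelial markers had medians of 0.111 and 0.530, and that of Plin2 to the monocyte markers 0.815 and 1.72. These 6 ratios overlapped between the diets. Against the 4 pan-macrophage genes Lgals3 did not overlap, at 3.46 to 10.1 on NCD and 1.31 to 3.32 on HFD. Fcgr1 of these genes was at the floor in Casp11-/- NCD replicate 2, which had the ratio of 3.46. Mertk was 1.01 TPM and Fcgr1 1.33 TPM in Casp11-/- NCD replicate 1, which had that of 10.1. The NCD range thus rests in part on reference genes at or near the floor. How many other genes separated on this ratio was not counted. On the macrophage scale 60.7% of genes were called lower on HFD over both genotypes, so the separation does not single out Lgals3. The ratios of Cd36 (medians 1.35 and 2.66), Lpl (0.588 and 1.72) and Plin2 (2.98 and 1.66) to the 4 pan-macrophage genes did overlap. The part of cell make-up in the members' differences was not tested.

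**Figure D5:**
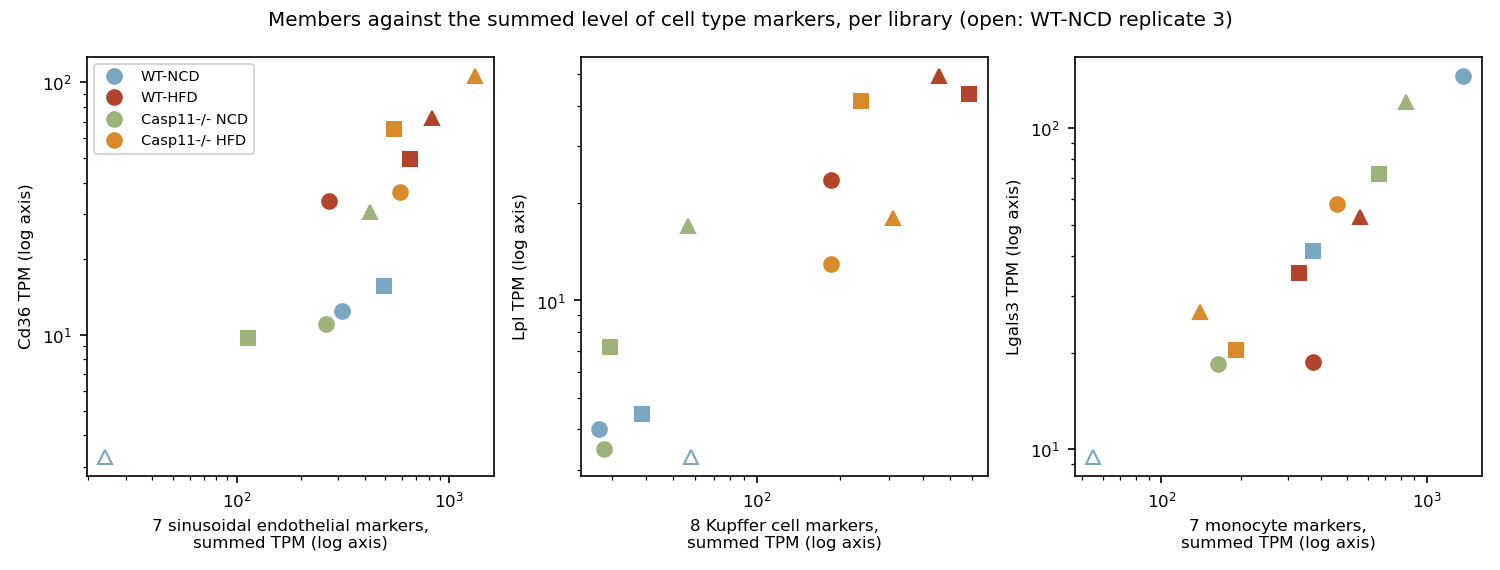
Cd36 against the summed level of 7 sinusoidal endothelial markers, Lpl against 8 Kupffer cell markers and Lgals3 against 7 monocyte markers, in TPM on log axes, 1 point a library (square, circle and triangle for replicates 1, 2 and 3; open for WT-NCD replicate 3). The higher values of each gene lie mostly in libraries with more of its marker list, and WT-HFD replicate 2 is the 1 HFD point whose endothelial sum lies within the NCD range of 113 to 495 TPM, with Cd36 at 33.8 TPM.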

How the data were processed

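Total RNA from the liver immune cell fraction was made into stranded, random-primed libraries, read from 1 end and aligned with STAR to mm10 by the authors, who computed TPM per gene in Qlucore Omics Explorer. The deposited values, kept here as a score, are TPM with a lowest value of 1.01 and totals of 1000353 to 1022495 per library. They hold no read counts, so the depth is unknown and no counting interval is given. One table of Casp11-/- HFD replicate 2 carries a column name that drops a digit of the group's name, and was assigned by its sample. The study counts 3 mice a group. Whether RNA was pooled is not stated, and p-values measure the spread between these libraries.

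Log2(TPM + 1) of genes above the lowest value in at least 3 libraries was fitted by group in limma 3.58.1 (R 4.3.3) with a mean-dependent prior on the spread. Tests were two-sided, Benjamini-Hochberg adjusted over all genes tested and called at 0.05; ± is the SE of a log2 difference, which is understated for low genes by the pseudocount of 1. The fits were checked on simulated data. The members, the 20 gene and marker lists and the alternatives were chosen with earlier results of these data known. Some list genes are not reported here and were left out of the lists' counts, sums and scaling. Without a call, the first gene of a list is named, otherwise up to 3 of smallest p. Genes alike in pattern were ranked by Pearson r on rescaled log2 values among protein-coding genes above the lowest value in at least 8 of 11 libraries with a mean of at least 5 TPM. The fit without both WT-NCD replicate 3 and Casp11-/- HFD replicate 1, and the heart and pigment lists, were added after seeing the data. Sequences are from RefSeq and coordinates of genes from GENCODE.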

Additional observations from a re-analysis of the deposited data

How the results depend on the processing

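Stability over the alternatives was counted for every member in the diet differences. It was counted for only some members in the interaction and between genotypes on HFD, and for none between genotypes on NCD. The log2 differences counted kept the direction and side of the threshold that they had with 12 libraries in 766 comparisons. They passed the threshold in 49 more, fell short of it in 12 and changed sign in 81, of which 17 were over both genotypes. Between genotypes on NCD, the differences of Fabp5, Lpl and Spp1 kept their sign under all alternatives. Those of the other members took both signs, with Cd36 running from -0.38 to 1.17. The sign changes of diet differences concern Trem2, Spp1, Cd9, Lgals3, Plin2, Fabp4, Fabp5 and Gpnmb. The signs of Cd36 and Lpl did not change in any diet comparison, under any alternative. The cause of the changes was not tested. With 3 libraries a group, unknown depth and a scale that moves the median of all genes, the direction of the smaller differences is not settled by these data.

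The number of members called over both genotypes, 1 with 12 libraries, was 0 when genes above the floor in at least 1 library were tested, and 2 when a value above the floor was asked of every library. It was 2 with protein-coding genes rescaled, 5 with that and no WT-NCD replicate 3, 4 under scaling to the pan-macrophage genes (macrophage scaling) with or without that library (Cd36 and Lpl higher, Lgals3 and Spp1 lower, where 60.9% of all genes were called without that library and 43.6% with it, nearly all lower), 6 with library weights, 2 without both WT-NCD replicate 3 and Casp11-/- HFD replicate 1 and 3 when the rescaling was added. In WT, 0 became 1 with the every-library filter and with rescaling (Lpl higher, where 0.74% and 0.0938% of all genes were called). Macrophage scaling called 1 (Lgals3 lower, 21.5%), and 2 without WT-NCD replicate 3 (Lpl higher and Lgals3 lower, 38.6%). The count was 2 with rescaling and no WT-NCD replicate 3 (Cd36 and Lpl higher, 0.809%). Library weights called 3 (Cd36 and Lpl higher and Lgals3 lower, 49%). Without both libraries 1 was called (Lpl higher, 2.27%), and 2 with rescaling added (Cd36 and Lpl higher, 1.13%). In Casp11-/- mice 0 became 4 with library weights and 4 with rescaling and no WT-NCD replicate 3 (49.3% and 3.55% of all genes called). The count was 1 with macrophage scaling and no WT-NCD replicate 3 and 1 with rescaling and neither library (43.6% and 0.634%). All of these member calls were higher. Library weights ran from 0.01 for WT-NCD replicate 3 to 5.63. They called 1 member between genotypes on NCD (Fabp4 lower, where 7.39% of all genes were called). In the interaction they called 3 (Fabp4 and Fabp5 positive, Lpl negative, 6.8%). They also called 60.3% of all genes over both genotypes and 49.3% in Casp11-/- mice. Of the 6 members that they called over both genotypes Lgals3 and Spp1 were lower. Leaving out 1 library at a time gave 0 to 2 members over both genotypes (2 without WT-NCD replicate 3 or Casp11-/- NCD replicate 2) and 0 to 1 in WT (1 without WT-NCD replicate 3).

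Correlations of same-numbered libraries' deviations from their group means ran from -0.64 to 0.47, with WT-NCD replicate 3 included. They were not set against those of differently numbered libraries, so they cannot tell whether replicate numbers pair the libraries. With the replicate block 0 members were called over both genotypes, and it changed no other count.

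Over both genotypes, macrophage scaling with 12 libraries gave -0.80 for Cd9, -0.75 for Fabp5, -0.51 for Plin2 and -0.047 for Gpnmb, and without WT-NCD replicate 3 -0.68, -0.27 and -0.68 for the first 3. Spp1 was 0.64 with the 1% most abundant genes removed, 0.18 with rescaling, 0.27 with no WT-NCD replicate 3 in addition and 0.34 with rescaling and neither library. Trem2 was 0.23 with the most abundant genes removed, 0.051 with library weights, 0.26 with rescaling and no WT-NCD replicate 3 and 0.21 with rescaling and neither library. Leaving out 1 library at a time gave -0.063 (without WT-HFD replicate 3) to 0.40 for Fabp5. The interaction of Cd36 was 0.51 with library weights, 0.49 with macrophage scaling and 0.61 with no WT-NCD replicate 3 in addition, 0.11 with rescaling and no WT-NCD replicate 3, 0.24 without both libraries, 1.21e-05 with rescaling added, and -0.72 to 0.26 when 1 library at a time was left out.

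Sign changes in WT were as follows. With the 1% most abundant genes removed the log2 differences were 0.25 for Trem2, 0.89 for Spp1, 0.54 for Fabp5 and 0.97 for Lgals3, and Lgals3 over both genotypes was 0.41. With rescaling they were 0.011 for Spp1 and 0.061 for Lgals3, and with no WT-NCD replicate 3 in addition, with or without Casp11-/- HFD replicate 1, 0.39 for Trem2, 0.20 for Spp1 and 0.42 for Fabp5. Under macrophage scaling they were -1.29 for Cd9, -0.93 for Fabp4, -0.67 for Plin2 and -0.096 for Gpnmb, and without WT-NCD replicate 3 -1.04 for Cd9, -0.33 for Fabp4 and -1.02 for Plin2. Library weights gave 0.0093 for Trem2 and -0.065 for Cd9, and without both libraries Cd9 was -0.14 and Plin2 -0.10. In Casp11-/- mice Trem2 was 0.20 and Spp1 0.39 with the most abundant genes removed, 0.14 and 0.35 with rescaling with or without WT-NCD replicate 3, and Trem2 0.094 with library weights. Macrophage scaling gave -0.31 for Cd9 and -0.34 for Plin2, and without WT-NCD replicate 3 -0.32, -0.35 and, for Gpnmb, -0.016. Without both libraries Gpnmb was -0.61 and Spp1 0.0095, and with rescaling in addition Trem2 was 0.033, Gpnmb -0.26, Spp1 0.49 and Lgals3 0.029. Leaving out 1 library at a time gave, in WT, -0.14 to 0.31 for Cd9, -1.22 to 0.68 for Lgals3, -0.10 to 1.44 for Plin2 and -0.74 to 0.071 for Spp1. In Casp11-/- mice it gave -0.13 to 0.59 for Cd9, -0.61 to 0.97 for Gpnmb, -0.034 to 0.70 for Plin2, -0.94 to 0.23 for Spp1 and -0.64 to 0.26 for Trem2.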
